A study of Homo sapiens with 24 samples.

Results

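RRM2, TYMS and DUT encode enzymes that supply and control the building blocks of DNA. RRM2 is the small subunit of ribonucleotide reductase, TYMS is thymidylate synthase and DUT is dUTP pyrophosphatase. They were taken as every probe that carries one of these symbols in any of the authors' 6 deposited lists of changed genes, which gave 3 probes for 3 of the 605 genes named in those lists. RRM2 is represented by probe ILMN_1678669, TYMS by ILMN_1806040 and DUT by ILMN_2374778.

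The study profiled AsPC-1 and COLO-357, established human pancreatic ductal adenocarcinoma cell lines, on Illumina bead arrays with biotin-labelled RNA. Cultures were given vehicle or 5 µM of PD-0332991, also called palbociclib, which inhibits the kinases CDK4 and CDK6, and were harvested after 24 h or 72 h. Line, treatment and time form 8 groups of 3 biological replicates, 24 arrays in all. AsPC-1 was kept in RPMI 1640 and COLO-357 in DMEM, so cell line and base medium cannot be told apart.

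As background, ribonucleotide reductase turns ribonucleotides into deoxyribonucleotides and is the rate-limiting step of their de novo synthesis. Thymidylate synthase methylates dUMP to dTMP with a folate cofactor, and dUTP pyrophosphatase makes dUMP from dUTP, which feeds thymidylate synthase and keeps uracil out of DNA. Transcription of such genes is tied to entry into S phase, where E2F factors held by the RB protein act, and CDK4 and CDK6 phosphorylate RB. Thymidylate synthase is the target of fluoropyrimidines, and RRM2 has been studied in pancreatic cancer in connection with gemcitabine.

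The bases before an annotated transcript start are printed here because the genes moved together and because these enzymes are commonly described as E2F targets. All 3 symbols matched the RefSeq promoter table (GRCh38.p14), with 2 annotated starts for RRM2, 1 for TYMS and 4 for DUT. All windows lie on the plus strand, and each runs for 250 bases up to the base before the start. For each gene the window with the most motif matches is shown, in lower case and 5′ to 3′, with matches in capitals.
RRM2, chr2:10122489-10122738: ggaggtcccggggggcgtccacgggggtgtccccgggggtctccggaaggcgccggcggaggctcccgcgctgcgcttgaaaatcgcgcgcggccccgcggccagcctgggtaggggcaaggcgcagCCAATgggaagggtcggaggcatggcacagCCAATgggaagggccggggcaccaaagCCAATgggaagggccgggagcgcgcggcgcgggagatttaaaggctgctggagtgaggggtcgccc
TYMS, chr18:657403-657652: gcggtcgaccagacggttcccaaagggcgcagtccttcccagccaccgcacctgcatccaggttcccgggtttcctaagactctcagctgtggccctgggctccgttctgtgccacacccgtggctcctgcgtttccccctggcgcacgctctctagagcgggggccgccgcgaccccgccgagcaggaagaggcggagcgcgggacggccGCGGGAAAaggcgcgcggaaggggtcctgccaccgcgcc
DUT, chr15:48331947-48332196: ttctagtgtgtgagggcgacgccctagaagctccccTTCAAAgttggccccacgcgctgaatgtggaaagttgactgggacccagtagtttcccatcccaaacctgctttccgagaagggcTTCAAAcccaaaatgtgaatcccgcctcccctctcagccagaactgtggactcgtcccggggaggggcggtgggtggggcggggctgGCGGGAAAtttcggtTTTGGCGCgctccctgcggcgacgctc

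Motifs were searched on both strands as plain letters: TTTNNCGC (E2F-like), CCAAT (the CCAAT box bound by NF-Y) and TTTGAA (the cell cycle homology region, CHR), of which no matches overlapped in these windows. The RRM2 window holds 3 CCAAT boxes, which begin at positions -123, -93 and -66 from the start, and no E2F-like match. The TYMS window holds 1 E2F-like match, GCGGGAAA on the reverse strand at -39 to -32. The DUT window holds the same letters at -42 to -35 and a forward match, TTTGGCGC, at -27 to -20, besides 2 CHR matches. Over all 35116 promoter windows of 27305 genes, 5.9% hold an E2F-like match, 32.0% a CCAAT box and 13.3% a CHR. These shares are per window, whereas the windows shown for RRM2 and DUT were picked for having the most matches. The other RRM2 start, which lies inside the window printed above, has 1 CCAAT box and no E2F-like match. The other DUT starts have no match of the 3 motifs. A match describes letters in a window and shows no binding.

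**Figure D1:**
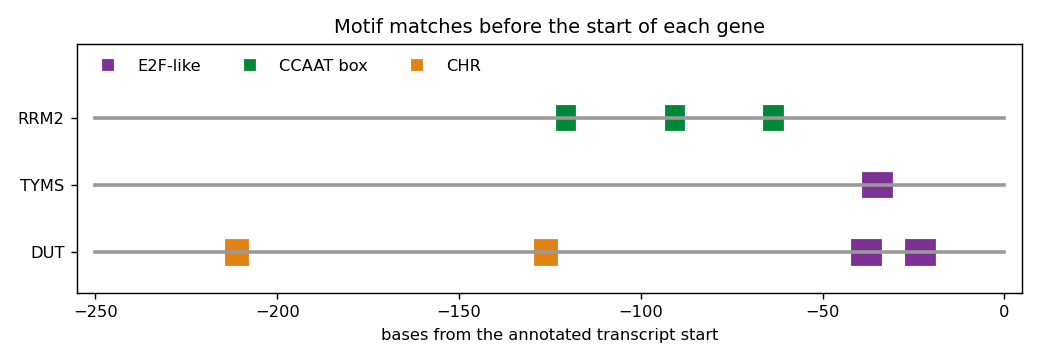
Positions of the motif matches before the annotated start of RRM2, TYMS and DUT (horizontal axis, bases from the start; position 0 is the start itself). Boxes mark the 3 CCAAT boxes of RRM2 (green), the E2F-like matches of TYMS and DUT between -42 and -20 (purple), and the 2 CHR matches of DUT (orange).

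All 3 probes were detected on all 24 arrays. Between 16440 and 20697 of 47223 probes were detected per array, and 24750 probes detected on at least 3 arrays were tested. The array medians of the deposited intensities were 85.5 to 106.3 outside COLO-357 at 24 h and 109.9 to 133.0 in those 6 arrays. Of the lists of cell identity markers, 1 of 7 epithelial genes (CLDN7) and no fibroblast, leukocyte or endothelial gene carried a name, so the presence of other cells could not be looked at. No batch is named in the sources used here. Levels below are background-corrected, quantile-normalised log2 intensities. The level of one gene is not set against that of another, because probes differ in brightness.

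RRM2 fell in both lines after 24 h of drug and was near its vehicle level at 72 h. In AsPC-1 at 24 h the log2 level of RRM2 was 10.11, 9.02 and 9.16 on the vehicle arrays and 6.83, 6.46 and 7.17 on the treated arrays. The groups did not overlap, which held in this direction for 10.6% of tested probes, and vehicle replicate 1 stood about 1 log2 unit above the other two. RRM2 fell by 2.61 ± 0.24 log2 (SE, n = 3 per group, limma adjusted p = 8.2e-08), a 6.12-fold difference. It fell by 2.27 when vehicle replicate 1 was left out. The treated level was close to background, with deposited intensities of 153.9 to 178.9 against array medians of 98.8 to 106.3. Without background correction RRM2 fell by 1.93, and in the authors' scaled intensities it fell by 1.69, so the fold depends on the background step.

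COLO-357 had the higher RRM2 level. At 24 h it was 10.12, 10.72 and 10.35 in vehicle cultures and 8.40, 8.17 and 8.88 in treated cultures, again with no overlap (15.2% of tested probes in this direction). RRM2 fell by 1.91 ± 0.24 log2 there (limma adjusted p = 9.1e-06), a 3.76-fold difference.

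TYMS fell in both lines as well. In AsPC-1 at 24 h its log2 level was 11.10, 11.16 and 11.14 with vehicle and 9.05, 9.14 and 9.17 with the drug. The separation was far larger than the spread within either group, whose SDs were 0.03 and 0.06. TYMS fell by 2.01 ± 0.14 log2 (limma adjusted p = 1.6e-09), a 4.04-fold difference, and ranked 10 of all tested probes by p-value. In COLO-357 at 24 h TYMS stood at 11.55, 11.64 and 11.46 with vehicle and at 9.60, 9.39 and 9.95 with the drug. Treated arrays were all lower, as for 15.2% of tested probes, and TYMS fell by 1.91 ± 0.14 log2 (limma adjusted p = 2.8e-09), a 3.75-fold difference.

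DUT, the enzyme that clears dUTP, fell by a smaller amount. Its log2 level in AsPC-1 at 24 h was 8.36, 8.82 and 8.55 on vehicle arrays and 7.34, 7.55 and 7.62 on treated arrays. In COLO-357 at 24 h it was 9.35, 9.28 and 9.31 with vehicle and 8.23, 8.11 and 8.37 with the drug. Neither line's groups overlapped, which held in this direction for 10.6% of tested probes in AsPC-1 and 15.2% in COLO-357. DUT fell by 1.07 ± 0.14 log2 in AsPC-1 (limma adjusted p = 1e-05) and by 1.08 ± 0.14 in COLO-357 (limma adjusted p = 1.2e-05), each a 2.11-fold difference. In the authors' scaled intensities DUT fell by 0.69 in AsPC-1 and by 1.0 in COLO-357, so the equal fold depends on processing. Treated AsPC-1 arrays were dim for DUT, with deposited intensities of 199.2 to 235.2 against array medians of 98.8 to 106.3. The deposited description of the DUT probe speaks of a nuclear gene for a mitochondrial protein, but the probe's sequence was not used here, and the nuclear and mitochondrial isoforms were not told apart.

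**Figure D2:**
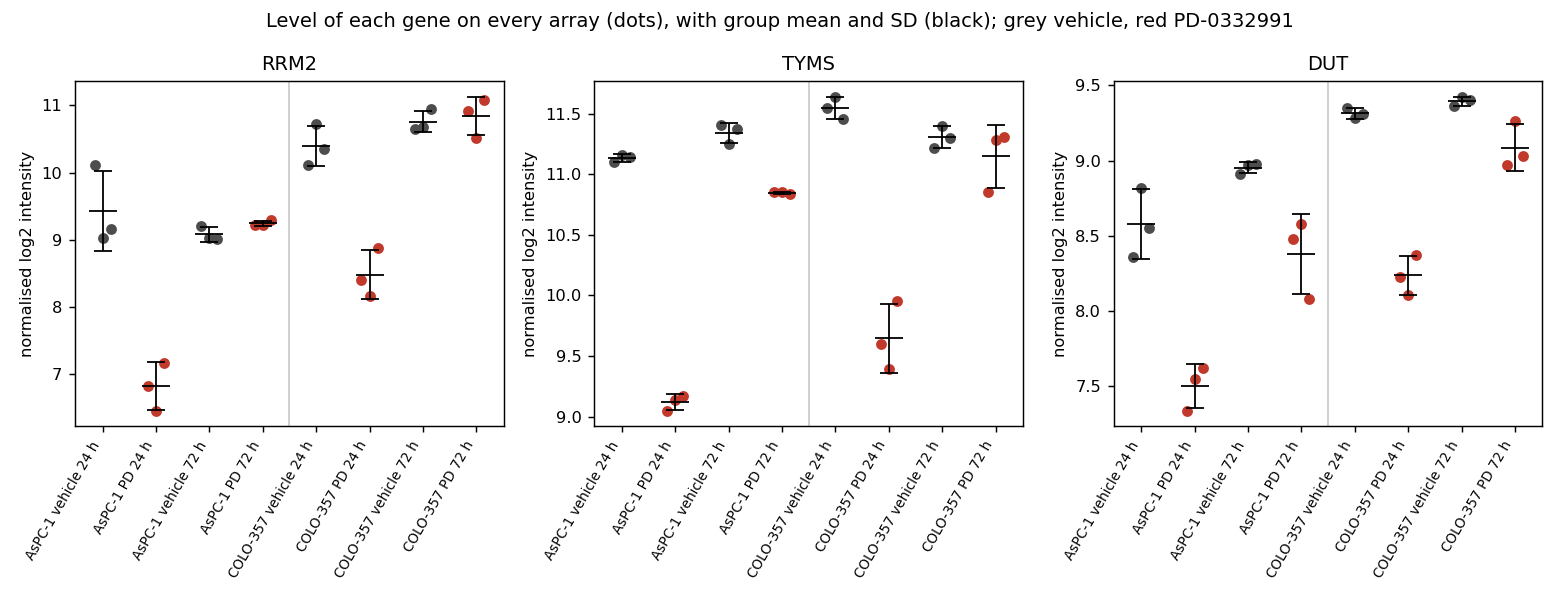
Normalised log2 intensity of RRM2, TYMS and DUT on each of the 24 arrays (dots; grey vehicle, red PD-0332991), with the mean and SD of each group of 3 in black; each panel has its own vertical axis. At 24 h the treated arrays of each gene lie below all vehicle arrays of the same line, as for 10.6% of tested probes in AsPC-1 and 15.2% in COLO-357. At 72 h the distance is smaller, with DUT in AsPC-1 still lower by 0.57 log2 against 1.07 at 24 h, a change that did not pass the test.

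At 24 h, then, 3 of 3 genes were called lower in AsPC-1, where 5.79% of all tested probes were, and 3 of 3 in COLO-357, where 5.78% were. The median effect of all tested probes was 0.01 log2 in both. These 3 probes have names in the files because the authors listed them as changed in these samples, so their direction at 24 h is not independent evidence. RRM2 and TYMS are in the authors' 24 h lists of both lines and DUT is in the COLO-357 list only. In the authors' deposited table the ratio of treated over vehicle was 0.291 for RRM2 and 0.295 for TYMS in AsPC-1. The authors' deposited table gave 0.286 for RRM2, 0.267 for TYMS and 0.49 for DUT in COLO-357. These are RNA levels of whole cultures, in which fewer cells holding a transcript and less of it per cell cannot be told apart.

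**Figure D3:**
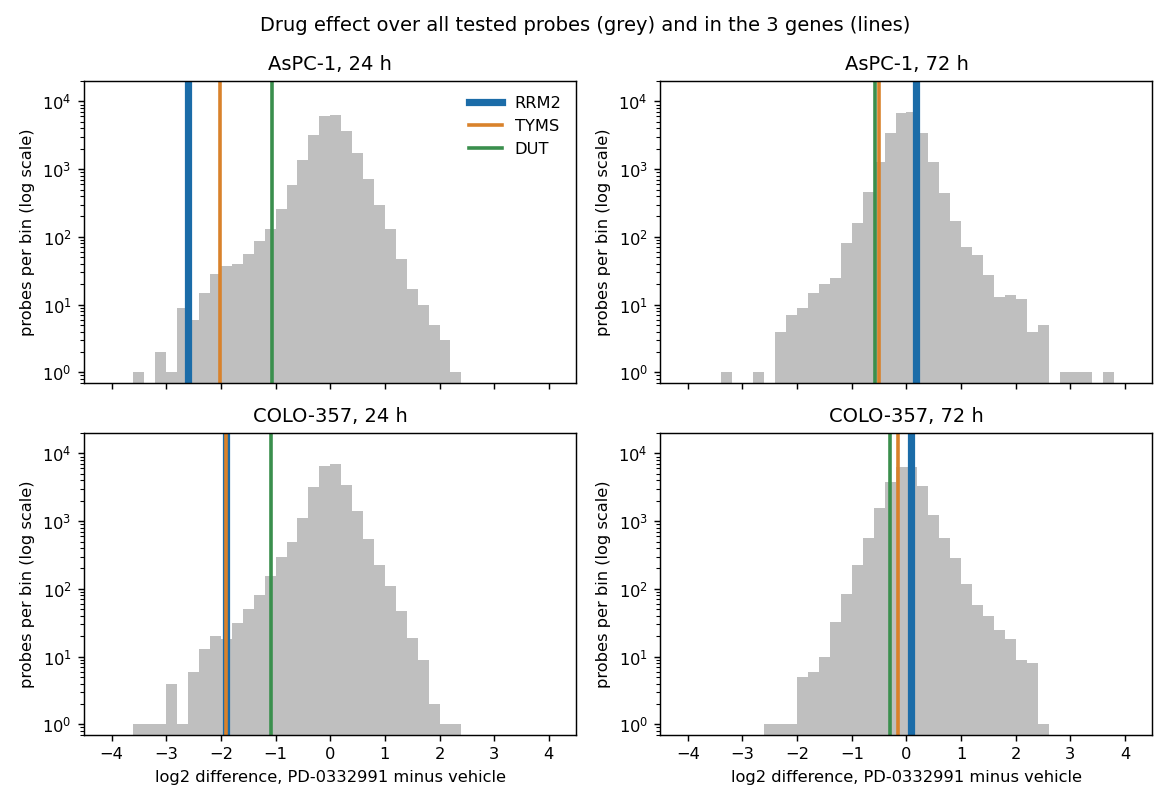
Histograms of the drug effect (log2 difference, PD-0332991 minus vehicle) over all 24750 tested probes in each line and time, with the number of probes per bin on a log scale and coloured lines at the 3 genes. RRM2 and TYMS lie in the far lower tail at 24 h (-2.61 and -2.01 in AsPC-1, -1.91 for both in COLO-357), and all 3 genes lie between -0.57 and 0.17 at 72 h.

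The next comparison asked whether the genes were still lower after 72 h of drug. None of the 3 genes is in the authors' 72 h lists. For RRM2 the log2 level in AsPC-1 at 72 h was 9.21, 9.02 and 9.01 with vehicle and 9.22, 9.22 and 9.29 with the drug. The treated arrays were all slightly above the vehicle arrays, which held for 13.3% of tested probes, and the difference of 0.17 ± 0.24 log2 did not pass the test (limma adjusted p = 0.81). Its 95% confidence interval ran from -0.33 to 0.67, so it excludes a fall of the 24 h size. In COLO-357 at 72 h RRM2 was at 10.65, 10.68 and 10.94 with vehicle and at 10.92, 10.52 and 11.08 with the drug. These groups overlapped, and the difference was 0.08 ± 0.24 (limma adjusted p = 0.9, interval -0.42 to 0.58). The sign of that value turned with scaling, to -0.08 under 75th percentile scaling and to -0.27 with the authors' scaled intensities, and was -0.04 without treated replicate 3.

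TYMS remained somewhat lower in AsPC-1 at 72 h. Its log2 level was 11.41, 11.25 and 11.37 with vehicle and 10.85, 10.85 and 10.84 with the drug, without overlap (13.1% of tested probes in this direction). The difference of -0.50 ± 0.14 log2 passed narrowly (limma adjusted p = 0.028). It lost the call when any 1 of the 6 arrays was left out, with adjusted p from 0.053 to 0.098 (limma), in the authors' scaled intensities (0.075) and with 75th percentile scaling (0.097).

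In COLO-357 at 72 h the TYMS level was 11.22, 11.40 and 11.30 with vehicle and 10.85, 11.28 and 11.31 with the drug. Treated replicate 1 was low and the other treated arrays lay within the vehicle range. The difference was -0.16 ± 0.14 log2 and did not pass (limma adjusted p = 0.55), and without treated replicate 1 it was -0.01.

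DUT was lower in AsPC-1 at 72 h as well, at 8.91, 8.97 and 8.98 with vehicle and at 8.48, 8.58 and 8.08 with the drug. The lowest treated array was replicate 3. DUT fell by 0.57 ± 0.14 log2 (limma adjusted p = 0.013), a 1.49-fold difference. Without treated replicate 3 the value was -0.42 (limma adjusted p = 0.11), without vehicle replicate 2 the adjusted p was 0.053, and with only the groups compared in the fit it was 0.082.

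In COLO-357 at 72 h DUT stood at 9.36, 9.42 and 9.40 with vehicle and at 8.97, 9.26 and 9.03 with the drug. The groups did not overlap, as for 15% of tested probes in that direction, yet the difference of -0.30 ± 0.14 log2 did not pass (limma adjusted p = 0.18). It passed with array weights (-0.34, limma adjusted p = 0.045).

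The COLO-357 values at 72 h depended on the scaling between arrays. The deposited intensities are not scaled between arrays, whose medians were 90.2 to 92.4 with vehicle and 85.5 to 89.0 with the drug. Those of TYMS were 2720.7, 3242.3 and 3123.5 with vehicle and 1510, 2166.1 and 2299.9 with the drug. DUT intensities were 807.7, 849.3 and 870.8 with vehicle and 469.1, 595.8 and 552.6 with the drug. In the authors' scaled intensities TYMS fell by 0.54 log2 (limma adjusted p = 0.0045) and DUT by 0.55 (limma adjusted p = 0.0012), while the median of all tested probes was -0.08 there. The unweighted fit on quantile-normalised values gave neither call.

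Over the 3 genes, 2 were called lower in AsPC-1 at 72 h, where 2.79% of tested probes were. In COLO-357 at 72 h limma called 0 of 3, with 1 at an unadjusted p under 0.05 (DUT), where 5.54% of tested probes were called lower.

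**Figure D4:**
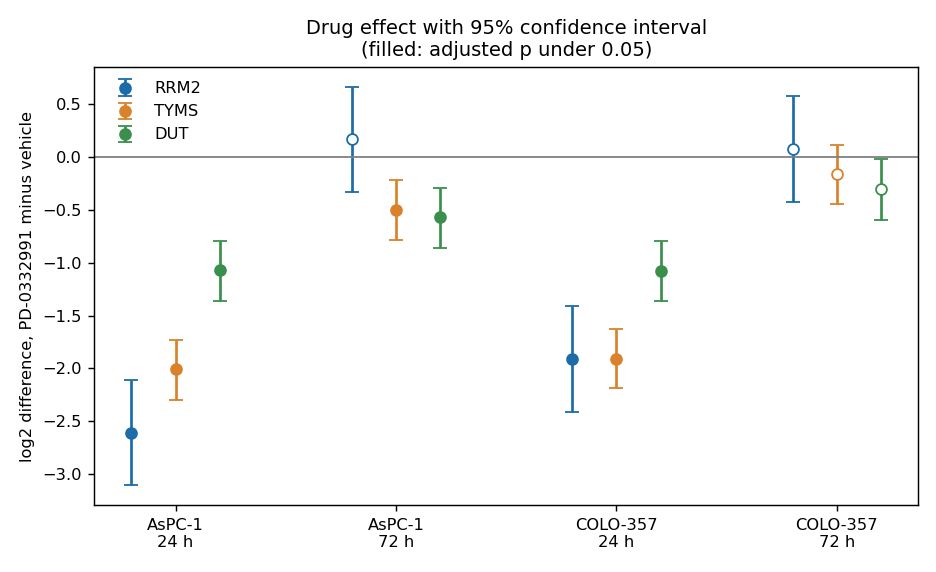
Drug effect on RRM2, TYMS and DUT (log2 difference, PD-0332991 minus vehicle) with 95% confidence intervals from the fit over 24 arrays, filled where the adjusted p is under 0.05. At 24 h the values run from -2.61 to -1.07, and at 72 h from -0.57 to 0.17 with TYMS and DUT called only in AsPC-1.

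Whether the effect itself differed between times was tested as an interaction. For RRM2 the effect at 72 h was higher than at 24 h by 2.78 ± 0.34 log2 in AsPC-1 (limma adjusted p = 4.5e-05) and by 2.0 ± 0.34 in COLO-357 (limma adjusted p = 0.0027). For TYMS it was higher by 1.51 ± 0.19 in AsPC-1 (limma adjusted p = 5.8e-05) and by 1.75 ± 0.19 in COLO-357 (limma adjusted p = 4e-05). Both genes kept their calls in all alternatives and on leaving out any 1 array. DUT differed less: 0.77 ± 0.20 in COLO-357 (limma adjusted p = 0.043) and 0.50 ± 0.20 in AsPC-1, which did not pass (limma adjusted p = 0.2). The COLO-357 call of DUT was lost without 10 of the 12 arrays taken 1 at a time, the exceptions being treated 24 h replicate 3 and treated 72 h replicate 1, with adjusted p from 0.046 to 0.12 over all 12 (limma). Called higher were 2 of 3 genes in AsPC-1 against 1.88% of tested probes, and 3 of 3 in COLO-357 against 1.25%. The genes were named through the authors' 24 h lists (DUT through the COLO-357 list only). The same 24 h arrays enter these differences, so the counts are not independent of that choice.

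For RRM2 and TYMS the movement lay mainly in the treated cultures. DUT in AsPC-1 was higher at 72 h in vehicle cultures too, by 0.38 log2 (limma adjusted p = 0.16). From 24 h to 72 h of drug, the mean RRM2 level went from 6.82 to 9.25 in AsPC-1 and from 8.48 to 10.84 in COLO-357, rises of 2.43 ± 0.24 and 2.36 ± 0.24 log2 (limma adjusted p = 4.6e-07 and 9.1e-07). TYMS rose by 1.72 ± 0.14 in AsPC-1 and 1.5 ± 0.14 in COLO-357 (limma adjusted p = 2.9e-08 and 2e-07). DUT rose by 0.88 ± 0.14 and 0.85 ± 0.14 (limma adjusted p = 0.00023 and 0.00013). Thus 3 of 3 genes rose in treated cultures of each line, against 3.33% of tested probes in AsPC-1 and 11.3% in COLO-357. The treated 24 h arrays were also behind the naming of the genes (for DUT in COLO-357 only), so these rises are not independent of it.

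In vehicle cultures limma called 0 of 3 genes between 72 h and 24 h in AsPC-1 (2.16% of tested probes in either direction, 1 of the 3 at an unadjusted p under 0.05). It also called 0 of 3 in COLO-357 (17.6% of tested probes, 0 at an unadjusted p under 0.05). RRM2 differed by -0.35 in AsPC-1 and 0.36 in COLO-357, TYMS by 0.21 and -0.25, and DUT by 0.38 and 0.08 log2. The largest of these in AsPC-1, DUT, had limma adjusted p = 0.16. Arrays of different times may have been processed apart, which the sources used here do not say, so time and processing cannot be told apart in these comparisons.

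Ordered by mean level, the 8 groups fell into a like order for the 3 genes at the bottom. AsPC-1 treated for 24 h was lowest for RRM2 (6.82 ± 0.36, SD, n = 3), TYMS (9.12 ± 0.06) and DUT (7.5 ± 0.14), and COLO-357 treated for 24 h was next, at 8.48 ± 0.37, 9.64 ± 0.28 and 8.24 ± 0.13. For RRM2 the 3 other COLO-357 groups stood on top with overlapping ranges, and the 3 other AsPC-1 groups lay between 9.08 and 9.43. For TYMS the order was different, with AsPC-1 vehicle cultures at 72 h (11.35) overlapping COLO-357 vehicle cultures at 72 h (11.31). COLO-357 vehicle cultures at 24 h had the highest mean TYMS level (11.55 ± 0.09). Their TYMS difference from COLO-357 vehicle cultures at 72 h did not pass (limma adjusted p = 0.23). That from AsPC-1 vehicle cultures at 72 h was not tested. DUT was highest in COLO-357 vehicle cultures, at 9.39 ± 0.03 and 9.31 ± 0.04. AsPC-1 cultures treated for 72 h (8.38 ± 0.26) overlapped both AsPC-1 vehicle cultures at 24 h (8.58 ± 0.23) and COLO-357 cultures treated for 24 h.

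Vehicle cultures of the lines were compared next. COLO-357 had more RRM2 signal than AsPC-1, by 0.96 ± 0.24 log2 at 24 h (limma adjusted p = 0.0018) and by 1.68 ± 0.24 at 72 h (limma adjusted p = 3.4e-06). DUT was higher too, by 0.74 ± 0.14 at 24 h and 0.44 ± 0.14 at 72 h (limma adjusted p = 9.6e-05 and 0.01). TYMS was higher by 0.42 ± 0.14 at 24 h (limma adjusted p = 0.013, and 0.051 without COLO-357 vehicle replicate 2). At 72 h TYMS differed by -0.04 ± 0.14 (limma adjusted p = 0.83), by 0.03 under 75th percentile scaling and by 0.47 with the authors' scaled intensities (limma adjusted p = 0.0045). In vehicle cultures 27.8% of tested probes were called higher in COLO-357 at 24 h and 28.8% at 72 h, against 3 of 3 and 2 of 3 of these genes. Line differences move with scaling, since the median over all tested probes was -0.27 at 24 h under 75th percentile scaling and 0.13 with the authors' scaled intensities.

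The drug effect was not shown to differ between the lines for any of the genes. Limma called 0 of 3 at 24 h (0.707% of tested probes in either direction) and 0 of 3 at 72 h (3.38%), and 0 of 3 had an unadjusted p under 0.05 at either time. At 24 h the effect in COLO-357 minus that in AsPC-1 was 0.70 ± 0.34 log2 for RRM2, with an interval from -0.01 to 1.41. For TYMS it was 0.11 (interval -0.29 to 0.50), and for DUT 0.00 (-0.41 to 0.40). At 72 h the differences were -0.09 (-0.79 to 0.62) for RRM2, 0.34 (-0.06 to 0.74) for TYMS and 0.27 (-0.14 to 0.68) for DUT. The intervals leave room for line differences of up to 1.41 log2 for RRM2, and for TYMS they are narrower.

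The genes were then compared with each other by the size of their drug effect, as the mean over both lines, with an exact permutation test over treatment labels within each line (400 relabelings, two-sided, smallest possible p 0.005). The test was added after the values of the genes had been seen. The 24 h arrays were also behind the naming of the genes (for DUT in COLO-357 only), so the 24 h p-values are not independent of that choice. At 24 h RRM2 lay 1.19 log2 further down than DUT (value -1.19, exact permutation p = 0.005, adjusted p = 0.015 over 6 comparisons). TYMS minus DUT was -0.89 (exact permutation p = 0.005, adjusted p = 0.015), and both differences had the same sign in each line. With COLO-357 relabelled only within same-numbered pairs (160 relabelings, smallest possible p 0.013), an alternative chosen after seeing the data, each had an exact permutation adjusted p of 0.038. RRM2 minus TYMS was -0.30 (exact permutation adjusted p = 0.29), with -0.60 in AsPC-1 and 0.00 in COLO-357. Its sign turned without background correction (0.03) and in the authors' scaled intensities (0.08).

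At 72 h the order was the other way round, with RRM2 above both other genes. RRM2 minus DUT was 0.56 and RRM2 minus TYMS 0.46 (exact permutation adjusted p = 0.038 for each), with the same sign in both lines. Each of these calls was lost without 10 of the 12 arrays taken 1 at a time, with adjusted p of up to 0.068 by the same exact test, in a design where fewer relabelings remain. TYMS minus DUT was 0.11 (exact permutation adjusted p = 0.32). Signals near background are compressed on bead arrays, so effect sizes of different probes are not on a strictly equal footing.

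Other genes of nucleotide supply were read from lists, of which only the members the authors had named could be followed. On the de novo deoxynucleotide list 4 of 14 genes were named, and 4 of 4 were lower in each line at 24 h. Their median was -1.71 in AsPC-1 and -1.5 in COLO-357, against 0.01 over all tested probes, of which 5.79% and 5.78% were called lower. They include RRM2, TYMS and DUT. All 4 were named only through the authors' 24 h lists, so this direction is not independent evidence. The additional gene is RRM1, the large subunit of ribonucleotide reductase, whose mean log2 level went from 12.27 ± 0.15 to 10.87 ± 0.06 in AsPC-1 and from 11.83 ± 0.05 to 10.75 ± 0.15 in COLO-357 (SD, n = 3). RRM1 fell by 1.40 ± 0.11 and 1.09 ± 0.11 log2 (limma adjusted p = 1.4e-08 and 6.9e-07), so the RNA signals of both subunits were lower. At 72 h RRM1 differed by -0.14 and -0.15 (limma adjusted p = 0.59 and 0.47), and of the list 2 of 4 were lower in AsPC-1 (2.79% of tested probes) and 0 of 4 in COLO-357 by limma (5.54% of tested probes), where DUT had an unadjusted p under 0.05.

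Salvage was represented by 1 of 10 genes, TK1, the cytosolic thymidine kinase that rises in S phase. TK1 fell by 1.74 ± 0.16 log2 in AsPC-1 and 1.39 ± 0.16 in COLO-357 at 24 h (limma adjusted p = 8.1e-08 and 2.6e-06). At 72 h its differences were -0.08 and -0.45 (limma adjusted p = 0.87 and 0.077). TK1 thus moved in the same direction as TYMS at 24 h, and it too was named only through the authors' 24 h lists.

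Folate and one-carbon supply had 3 of 12 genes named, and these moved in mixed directions. PSAT1, an enzyme of serine synthesis, rose at 24 h by 1.59 ± 0.16 in AsPC-1 and 0.57 ± 0.16 in COLO-357 (limma adjusted p = 2.8e-07 and 0.022), and was higher by 1.86 and 0.85 at 72 h (limma adjusted p = 1.3e-07 and 0.0011). MTHFD2, a mitochondrial folate enzyme, rose in AsPC-1 at 72 h by 1.35 ± 0.15 (limma adjusted p = 3.9e-06), and its other 3 effects, of -0.05 to 0.39, did not pass. GGH, which trims folate polyglutamates, fell in COLO-357 by 0.48 at 24 h and 0.73 at 72 h (limma adjusted p = 0.039 and 0.0024), with -0.44 and -0.08 in AsPC-1 that did not pass. Of 18 ribonucleotide precursor genes 1 was named, PFAS of purine synthesis, which fell in COLO-357 at 72 h by 0.83 ± 0.12 (limma adjusted p = 7.5e-05) and had values of -0.22 to 0.25 elsewhere that did not pass. PSAT1 was named through the authors' AsPC-1 lists at 24 h and 72 h, and MTHFD2 through the AsPC-1 72 h list. GGH and PFAS were named through the COLO-357 72 h list. The changes of these genes in the samples that named them are therefore not independent evidence.

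**Figure D5:**
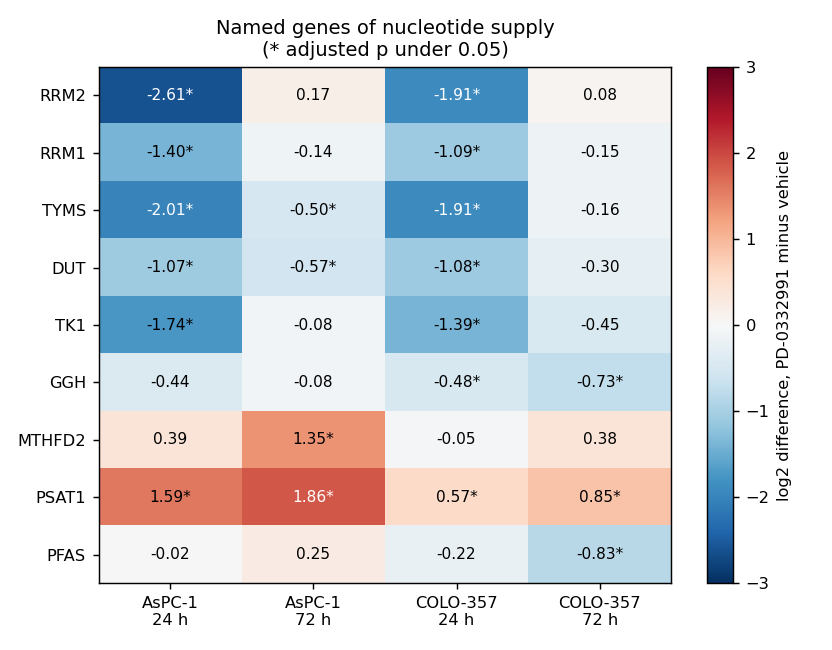
Drug effect (log2 difference, PD-0332991 minus vehicle; colour and printed value) in each line and time for the 9 named genes of nucleotide supply, with an asterisk where the adjusted p is under 0.05. RRM2, RRM1, TYMS, DUT and TK1 carry an asterisk at 24 h in both lines, while PSAT1 is higher in all 4 columns.

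Markers of proliferation moved with these genes. Of 17 such genes 10 were named, again through the authors' selection, and 10 of 10 were lower at 24 h in each line (median -2.02 in AsPC-1 and -1.5 in COLO-357), where 5.79% and 5.78% of tested probes were. At 72 h 1 of 10 was lower in AsPC-1 (CCNA2), where 2.79% of tested probes were, and 3 of 10 in COLO-357 (CCNA2, CCNB1 and MCM7), where 5.54% were. CCNA2 is also in the authors' COLO-357 72 h list, so its call there is not independent evidence. PCNA, the replication clamp, fell by 1.52 and 1.16 log2 at 24 h (limma adjusted p = 3.5e-08 and 2.2e-06) and differed by -0.19 and -0.15 at 72 h (limma adjusted p = 0.5 and 0.58). Whether the share of cells in S phase changed was not measured, and its part in the levels of RRM2, TYMS and DUT was not tested.

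The patterns over arrays were described by Pearson's r after each line's mean was subtracted, over 24 arrays that share groups and treatments. TYMS and DUT were most alike (r = 0.955), followed by RRM2 and TYMS (0.919) and RRM2 and DUT (0.833). Within groups the values were 0.428, 0.265 and -0.322, so most of the likeness came from differences between groups. Among 604 other named genes RRM2 was most like CCNE2 (cyclin E2, r = 0.961), STIL (0.96), FAM111A (0.958), RRM1 (0.956) and E2F2 (0.951). The differences of these 5 genes at 72 h did not pass in either line (limma adjusted p from 0.22 to 0.85). They were picked by r over arrays that include those at 72 h, so their 72 h result is not independent evidence. CCNE2 was detected on only 1 of the 3 AsPC-1 arrays treated for 24 h, so its lowest levels lie near background. TYMS was most like KIAA0101, which encodes the PCNA-binding factor PCLAF (r = 0.99), HJURP (0.979), CENPA (0.977), CCNA2 (0.977) and UBE2C (0.976). DUT was most like KIAA0101 (0.96), PTTG3P (0.957), NEK2 (0.957), TYMS (0.955) and FAM64A (0.952). Of these 8 genes besides TYMS, 4 passed as lower at 72 h in both lines by limma (CCNA2, CENPA, PTTG3P and FAM64A) and 1 in neither (HJURP). Over all tested probes 2.79% were called lower at 72 h in AsPC-1 and 5.54% in COLO-357. These genes too were picked over the 72 h arrays, from genes the authors listed as changed, so the counts are not independent of the choice. UBE2C and NEK2 passed in COLO-357 and KIAA0101 in AsPC-1, and whether their effects differed between the lines was not tested. Probes without a name were not searched for further probes of the same genes.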

How the data were processed

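RNA levels of 2 pancreatic cancer lines were measured on 24 bead arrays. Per the file headers, the authors deposited 1 linear intensity per probe and array, without normalisation, beside a detection p-value. The sources used here name no array software. The authors' value table was checked to be these intensities multiplied by 1 factor per array (0.7136 to 1.084). The authors' deposited lists give a ratio of treated over vehicle and a parametric p-value, and no source used here names their test.

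Intensities were background-corrected by the normal-exponential model with the detection p-values, quantile-normalised and put on a log2 scale with an offset of 16 (limma 3.58.1, R 4.3.3). A probe was tested if its detection p was under 0.05 on 3 arrays or more. The model had 1 mean for each group over 24 arrays (lmFit, eBayes), and p-values were two-sided and adjusted by Benjamini-Hochberg over 24750 probes, with calls at an adjusted p under 0.05. Where a list gene had several named probes, the one with the highest mean signal was used. Other genes were named by list membership and, for likeness, as the 5 named genes with the highest r to each gene. The genes, lists and motifs were chosen with earlier results of these data known. The permutation test of differences between genes was added after their values had been seen. The number of arrays limits the precision. Same-numbered samples deviated together in COLO-357 (r from 0.117 to 0.467 over 6 pairs) but not in all pairs of AsPC-1 (0.01 to 0.12), a hint from the data only. In COLO-357 replicate 3 correlated more with another number (0.135 against 0.117 at 24 h, 0.184 against 0.144 at 72 h). The probe sequences, and with them cross-hybridisation with pseudogenes or overlapping genes, were not examined. Alternatives were 75th percentile scaling, no background correction, the authors' scaled intensities, an offset of 50, no filter on dim probes, array weights, a replicate block, only the groups compared, and leaving out each array. Plots were made in Python 3.11.15 (matplotlib 3.10.9).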

Additional observations from a re-analysis of the deposited data

Results flagged for a closer look

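The drug effect differed between 24 h and 72 h by the interaction test of the fit (limma) in 5 of the 6 combinations of gene and line, which is what singles these results out. Over all tested probes, 1.88% in AsPC-1 and 1.25% in COLO-357 were called higher in this test. The genes were named through the authors' 24 h lists (DUT through the COLO-357 list only), so 24 h arrays entered both the choice and this test. The effect at 72 h minus that at 24 h was 2.78 log2 for RRM2 and 1.51 for TYMS in AsPC-1, and 2.0 for RRM2, 1.75 for TYMS and 0.77 for DUT in COLO-357. The AsPC-1 value of DUT, 0.50, did not pass (limma adjusted p = 0.2). Its COLO-357 call was lost without 10 of the 12 arrays taken 1 at a time. For RRM2 the treated arrays carried most of the difference, being higher by 2.43 and 2.36 log2 at 72 h than at 24 h in AsPC-1 and COLO-357. Its vehicle arrays differed by -0.35 and 0.36.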

How the results depend on the processing

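The 48 results were recomputed under 762 combinations of result and alternative: 692 kept direction and side of the threshold, 44 kept only the direction and lost the call, 3 gained a call with the direction kept, and 23 changed sign, 0 of them among results that had been called. Among the 23, the vehicle line difference of TYMS at 72 h in the authors' scaled intensities gained a call (limma adjusted p = 0.0045). All 24 h drug effects kept their calls. At 72 h in AsPC-1, TYMS lost its call in the authors' scaled intensities (-0.43) and with 75th percentile scaling (-0.47), and on leaving out arrays (-0.55 to -0.47); DUT lost it with only the groups compared (-0.57) and without 2 of the arrays (range -0.68 to -0.42). At 72 h in COLO-357, the authors' scaled intensities gave -0.27 for RRM2 and calls for TYMS (-0.54) and DUT (-0.55), 75th percentile scaling gave -0.08 for RRM2, array weights gave a call for DUT (-0.34), and RRM2 ranged from -0.04 to 0.25 on leaving out arrays. The COLO-357 time difference of DUT lost its call under 75th percentile scaling (0.70), the authors' scaled intensities (0.44) and without most arrays (0.69 to 0.84). Uncalled line differences of the drug effect changed sign in the authors' scaled intensities (-0.08 for RRM2 and -0.16 for TYMS at 24 h, -0.11 for TYMS and -0.13 for DUT at 72 h), with array weights (0.10 for DUT at 24 h) and on leaving out arrays (-0.05 to 0.23 for TYMS and -0.13 to 0.11 for DUT at 24 h, -0.21 to 0.08 for RRM2 at 72 h). The vehicle line difference of TYMS was 0.03 and 0.47 under the scalings at 72 h, and on leaving out arrays -0.09 to 0.01 at 72 h and 0.37 to 0.46 at 24 h. Between genes, RRM2 minus TYMS at 24 h turned to 0.03 and 0.08, and at 72 h the range on leaving out arrays was 0.48 to 0.69 for RRM2 minus DUT and 0.36 to 0.57 for RRM2 minus TYMS. Their alternatives were chosen after seeing the data. The cause of each change was not tested, and where arrays were left out fewer arrays remained as well.

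A replicate block changed 0 of 42 calls by limma, and relabelling COLO-357 within same-numbered pairs, an alternative chosen after seeing the data, changed the call of 0 of 6 comparisons between genes (exact permutation adjusted p = 0.038 for the 4 called). With the block, TYMS in COLO-357 fell by 1.91 log2 at 24 h (adjusted p = 4.8e-08) and DUT at 72 h had -0.30 (adjusted p = 0.16). Signals close to background, as of RRM2 in AsPC-1 after 24 h of drug, limit how exactly a fold can be read.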
